A study of Mus musculus with 17 samples.

Results

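CD8+ T cells that lacked Cblb and were given anti-CD3 alone were compared with wild-type (WT) CD8+ T cells that were given anti-CD3 and anti-CD28 together. The labels put 3 knockout (KO) libraries (replicates 1, 2 and 3) and 2 WT libraries (replicates 2 and 3) in these groups, 5 of the 17 libraries of the study. The 17 libraries hold no replicate 1 of the WT group with both antibodies. All the mice were C57BL/6, all 5 cultures were harvested in the 12 h experiment, and the labels give the KO cells only as a Cblb knockout, without the part of the gene removed or whether the deletion was limited to T cells. The other 12 libraries were unstimulated cells of both genotypes, WT cells with anti-CD3 and KO cells with both antibodies, 3 of each. The comparison changes genotype and costimulation at once, and asks whether loss of Cblb under receptor signal alone reached or passed the transcript levels of costimulated WT cells.

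A naive T cell needs a signal through its antigen receptor, which anti-CD3 antibody supplies, and a costimulatory signal, which anti-CD28 antibody supplies through CD28. Cbl-b, the product of Cblb, is an E3 ubiquitin ligase that dampens signalling below the receptor, among other routes by acting on PI3 kinase and on the exchange factor Vav1, and T cells without it are known for responding with less dependence on CD28. CD28 signalling is known to raise IL-2 production, survival through Bcl-xL, and the uptake of glucose and amino acids.

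Levels are given as CPM, counts divided by the library's scaled total, and differences as log2 fold changes ± SE of KO anti-CD3 minus WT both antibodies, so that a positive value is higher in KO cells. A gene was called when its adjusted p was at most 0.05 (edgeR quasi-likelihood test, Benjamini-Hochberg over 16246 genes). Total counts were 20382594, 17325520 and 38269033 in the KO libraries and 19058880 and 20989751 in the WT libraries, within the range of the series (16635826 to 160059285). The CD8 T cell markers summed to 2547 to 2740 CPM in KO and 2800 to 2810 CPM in WT libraries, and 0 of 8 were called (2 lower after GC correction). Markers of other cells were low in all 5 libraries: 32.9 to 38.1 CPM (CD4 T and regulatory T cells, KO) against 35.8 to 36.1 (WT), 4.50 to 4.57 against 5.19 to 7.14 (myeloid), 4.78 to 6.36 against 5.50 to 9.54 (NK), and 0.267 to 3.20 against 0.571 to 0.930 (erythroid and platelet). Of these lists Cd14, S100a8, S100a9, Ncr1, Pf4 and Ppbp were at 0 in all 5 libraries, but other members were counted in each. The myeloid gene Itgax was at 2.08, 2.76 and 2.19 CPM in KO and 2.85 and 4.01 CPM in WT libraries. The NK gene Klrb1c was at 0.484, 0.113 and 0.721 CPM in KO and 1.09 and 1.57 CPM in WT libraries. Klre1, also of NK cells, overlapped between the groups (2.53 to 3.61 CPM in KO, 2.80 and 3.77 CPM in WT libraries). B cell markers summed to 197 to 223 CPM in KO and 259 to 273 CPM in WT libraries, of which Ighm alone gave 188 to 212 and 251 to 263 CPM. GC correction called 1 B cell marker and 1 NK marker lower, and RLE scaling 1 B cell marker lower. In the main fit 1 marker of other cells was called, the NK receptor gene Klra8, at 0.581, 0.788 and 0.508 CPM in KO and 0.104 and 0.0489 CPM in WT libraries (2.95 ± 1.10, adjusted p = 0.0446). It was near the lowest levels counted, and its call was lost when any 1 of the 5 libraries was left out. The part of these cells in the results was not tested, and in bulk RNA fewer cells of a type and less RNA per cell cannot be told apart.

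Cblb (ENSMUSG00000022637, GRCm38 chr16:52031225-52208048, plus strand) was at 78.4, 79.2 and 83.8 CPM in the KO libraries and at 178 and 179 CPM in the WT libraries. All 3 KO libraries lay below both WT libraries, with a log2 fold change of -1.15 ± 0.09 (adjusted p = 5.37e-06). The counts cover the whole gene, so they do not tell how much intact transcript the KO cells held.

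Across the genome, KO cells with anti-CD3 alone were higher more often than lower. Of 16246 genes tested, 1870 were called (11.5%), of which 1455 were higher (8.96% of genes tested) and 415 lower (2.55%). The higher genes also changed more: 301 were higher and 52 lower by at least 2-fold, and 51 and 7 by at least 4-fold. The median over all genes was -0.01, which the scaling of the libraries sets close to 0. In all 1870 called genes the groups did not overlap, against 29.2% of all genes with every KO library above both WT libraries and 27.3% with every KO library below. Unstimulated KO and WT cells also differed, with 15.3% of genes called higher and 10.1% lower in KO cells. The part of that difference in the comparison was not tested.

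**Figure D1:**
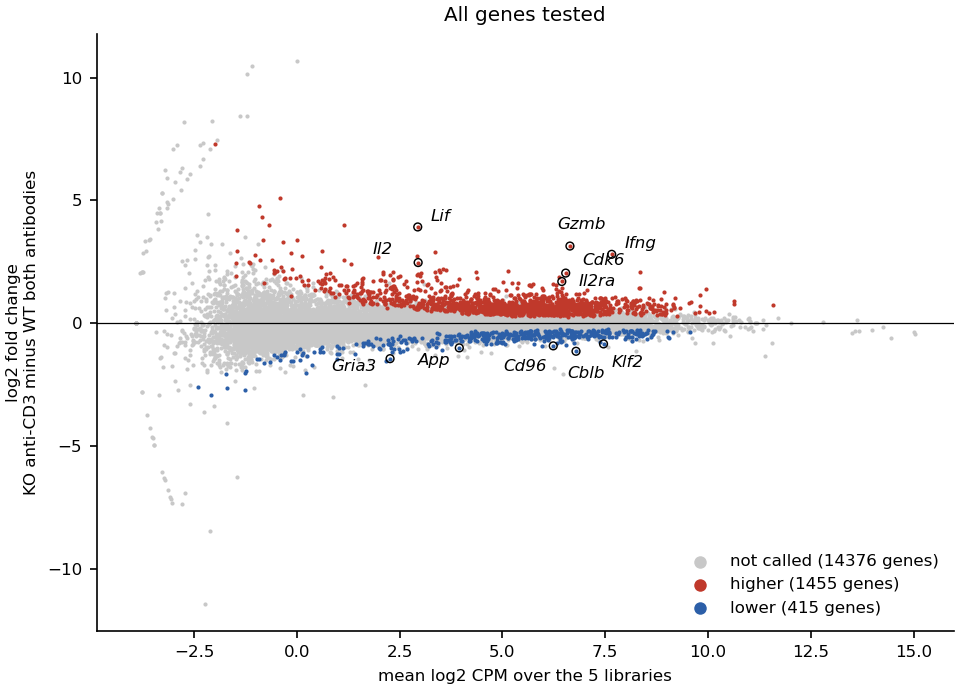
Log2 fold change of KO anti-CD3 minus WT both antibodies (y axis) against the mean log2 CPM over the 5 libraries (x axis), 1 point for each of the 16246 genes tested, red where called higher (1455), blue where called lower (415) and grey where not called (14376). More red points than blue ones show a change of at least 4-fold (51 against 7). Of the labelled genes Lif, Gzmb and Ifng stand at 3.92, 3.14 and 2.80, and Gria3, not the lowest of all genes, at -1.45.

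The number of genes that matched was counted separately from the number not called, because a p above the threshold does not show equal levels. For 10378 genes (63.9%) the 95% interval of the fold change lay wholly within 2-fold in either direction, and 987 of these were called. Of the 14376 genes not called, 9391 had such an interval and 4985 did not, so that for the latter neither a match nor a difference was detectable with these libraries.

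The groups were also unequal in how counts followed GC content. Each library's tilt, which is the median log2 deviation of GC-rich genes (56% or more) less that of GC-poor genes (40% or less), was 0.21, 0.10 and 0.24 in the KO libraries and 0.57 and 0.52 in the WT libraries. With a correction for this trend 1895 genes were higher and 1623 lower, so the share of calls that were higher went from 77.81% to 53.87%, while no called gene turned direction among those called in both fits (1807 genes). The part of this trend in the direction of single genes was not tested beyond that correction. The number of calls also rested on single libraries: 597 higher and 82 lower were called without KO replicate 3, 278 and 45 without WT replicate 2, and 297 and 37 without WT replicate 3.

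Cytokine genes were among those with the largest differences. Ifng, which encodes interferon-gamma (chr10:118441046-118445892, plus strand), was at 328, 439 and 572 CPM in the KO libraries and 69.5 and 58.6 CPM in the WT libraries. The lowest KO library was above both WT libraries by a wide margin, and the fold was 6.97 (95% interval 4.29 to 11.3; log2 fold change 2.80 ± 0.33, adjusted p = 0.000506). Il2, the growth factor whose production CD28 is best known for raising, was at 11.4, 16.2 and 18.4 CPM in KO and 3.12 and 2.45 CPM in WT libraries (2.47 ± 0.50, adjusted p = 0.0073). WT cells with both antibodies thus held less Il2 transcript than every KO library with anti-CD3 alone, although the call was lost without either WT library (range over the alternatives 2.53e-05 to 0.116). Lif, leukaemia inhibitory factor, was at 16.3, 18.3 and 34.7 CPM in KO and 1.402 and 1.66 CPM in WT libraries, 15.1-fold higher (7.74 to 29.4; 3.92 ± 0.45, adjusted p = 0.000244). KO replicate 3 was the highest library for all 3 of these genes, and the WT libraries were close to each other. Tnf, the inflammatory cytokine tumour necrosis factor, was at 103, 107 and 140 CPM in KO and 44.8 and 44.7 CPM in WT libraries (1.38 ± 0.19, adjusted p = 0.000524). Its neighbour Lta, lymphotoxin alpha, rose by 2.12 ± 0.26, Tnfsf11, which encodes RANK ligand, by 2.17 ± 0.30, and Csf2, which encodes GM-CSF, by 2.58 ± 0.48 (adjusted p = 0.000332, 0.000543 and 0.00268; Csf2 was not called without WT replicate 3). Csf2 was at a low level, with means of 4.53 CPM in KO and 0.765 CPM in WT libraries. Of 25 cytokine genes listed 18 passed the filter on low counts, and of these 11 were called higher and 0 lower, with a median of 1.07 against -0.01 over all genes. The counts of this and of each further list stand against 8.96% of all genes higher and 2.55% lower. In unstimulated KO minus WT cells 3 of the cytokine genes were called higher and 1 lower. The 11 calls became 10, 8 and 6 without KO replicate 3, WT replicate 2 and WT replicate 3.

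NFAT, the calcium-dependent factor downstream of the T cell receptor, is known to act at cytokine promoters such as that of Il2. The start-proximal sequences of Ifng, Il2, Lif and Tnf, which differed between the groups above, are shown so that their motif content can be read beside their levels. The sequences are from RefSeq on GRCm38.p6, 250 to 21 bases before the start of the gene, 5′ to 3′ on the strand of the gene: chr10:118440796-118441025 (plus) for Ifng, chr3:37125975-37126204 (minus) for Il2, chr11:4257318-4257547 (plus) for Lif and chr17:35202028-35202257 (minus) for Tnf. Capitals mark matches on either strand to the NFAT core GGAAA or to the AP-1 motif TGANTCA.
Ifng: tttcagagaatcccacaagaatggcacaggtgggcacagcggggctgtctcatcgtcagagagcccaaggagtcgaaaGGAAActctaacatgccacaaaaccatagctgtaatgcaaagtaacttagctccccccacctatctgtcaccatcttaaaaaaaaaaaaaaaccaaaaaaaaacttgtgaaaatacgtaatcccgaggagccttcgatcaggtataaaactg
Il2: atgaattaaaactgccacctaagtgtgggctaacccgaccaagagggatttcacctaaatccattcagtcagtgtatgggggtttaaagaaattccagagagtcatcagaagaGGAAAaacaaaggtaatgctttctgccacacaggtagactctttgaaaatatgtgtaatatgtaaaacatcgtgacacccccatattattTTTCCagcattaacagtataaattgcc
Lif: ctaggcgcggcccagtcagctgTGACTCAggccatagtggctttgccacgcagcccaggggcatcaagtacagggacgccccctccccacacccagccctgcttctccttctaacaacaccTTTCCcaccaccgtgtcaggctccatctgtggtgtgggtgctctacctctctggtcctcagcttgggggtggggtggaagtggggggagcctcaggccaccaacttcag
Tnf: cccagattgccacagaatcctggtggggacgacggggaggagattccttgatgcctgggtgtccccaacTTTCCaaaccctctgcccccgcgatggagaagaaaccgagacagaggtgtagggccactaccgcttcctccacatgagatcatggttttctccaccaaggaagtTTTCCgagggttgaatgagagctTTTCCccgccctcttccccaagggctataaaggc
The NFAT core occurred 1 time in the Ifng window, 2 times in that of Il2, 1 time in that of Lif and 3 times in that of Tnf, and the AP-1 motif 1 time, in Lif. Neither the cyclic AMP response element TGACGTCA nor the NF-kappaB motif (GGGA, any base, then TTTCC, so that it also matches the NFAT core on the other strand) was found in these 4 windows. In windows of the same length the NFAT core was in 52.7% of 27025 promoters and 52.1% of the 10094 of tested genes. It was in 56.8% of the 227 of genes called higher by at least 2-fold and 46% of the 302 of genes called lower. All 10 of the 10 cytokine genes called higher that had a sequence held it. Cytokine genes not called were not counted, so these 10 cannot be told apart from cytokine promoters in general. The AP-1 motif was in 6.45% of all promoters, 4% of tested genes, 7.49% of genes called higher by at least 2-fold, 2.65% of genes called lower and 2 of the 10 cytokine genes. The other motifs were in 1.32% (cyclic AMP response element) and 0.322% (NF-kappaB) of all promoters. A short match is a description of the letters in the window and not a binding site.

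Chemokine genes, whose products draw other leukocytes to an activated T cell, were higher as well. Ccl3 was at 498, 585 and 690 CPM in KO and 157 and 119 CPM in WT libraries (2.10 ± 0.24, adjusted p = 0.000319). Ccl4 and Xcl1 rose by 1.41 ± 0.15 and 1.38 ± 0.17 (adjusted p = 0.000158 and 0.000244), and Ccl1 by 1.57 ± 0.22 (adjusted p = 0.000597). Ccl9, the fifth member called and named for completeness after its value was seen, stood at 1.87 ± 0.37 (adjusted p = 0.00828). In all 5 genes the KO libraries were above the WT libraries. Of 8 chemokine genes tested 5 were higher and 0 lower (median 1.39), and 4 without either WT library.

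Among genes of cell killing, granzyme B (Gzmb), the serine protease that granules deliver into target cells, was at 182, 207 and 346 CPM in KO and 32.4 and 23.4 CPM in WT libraries. All KO libraries were above the WT libraries, 8.80-fold in the fit (4.64 to 16.7; 3.14 ± 0.43, adjusted p = 0.00162). The pore-forming protein perforin (Prf1) was at 98.4, 99.4 and 113 CPM in KO and 72.2 and 60.3 CPM in WT libraries, a smaller difference (0.65 ± 0.13, adjusted p = 0.00468). Nkg7, a granule membrane protein gene, rose by 0.88 ± 0.15, and the granzyme inhibitor genes Serpinb6b and, named after its value was seen, Serpinb9 by 1.44 ± 0.27 and 1.23 ± 0.23 (adjusted p = 0.00173, 0.00453 and 0.00469). Of 16 genes of this list tested, 5 were higher and 0 lower (median 0.34). Without WT replicate 3 Gzmb alone remained called.

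**Figure D2:**
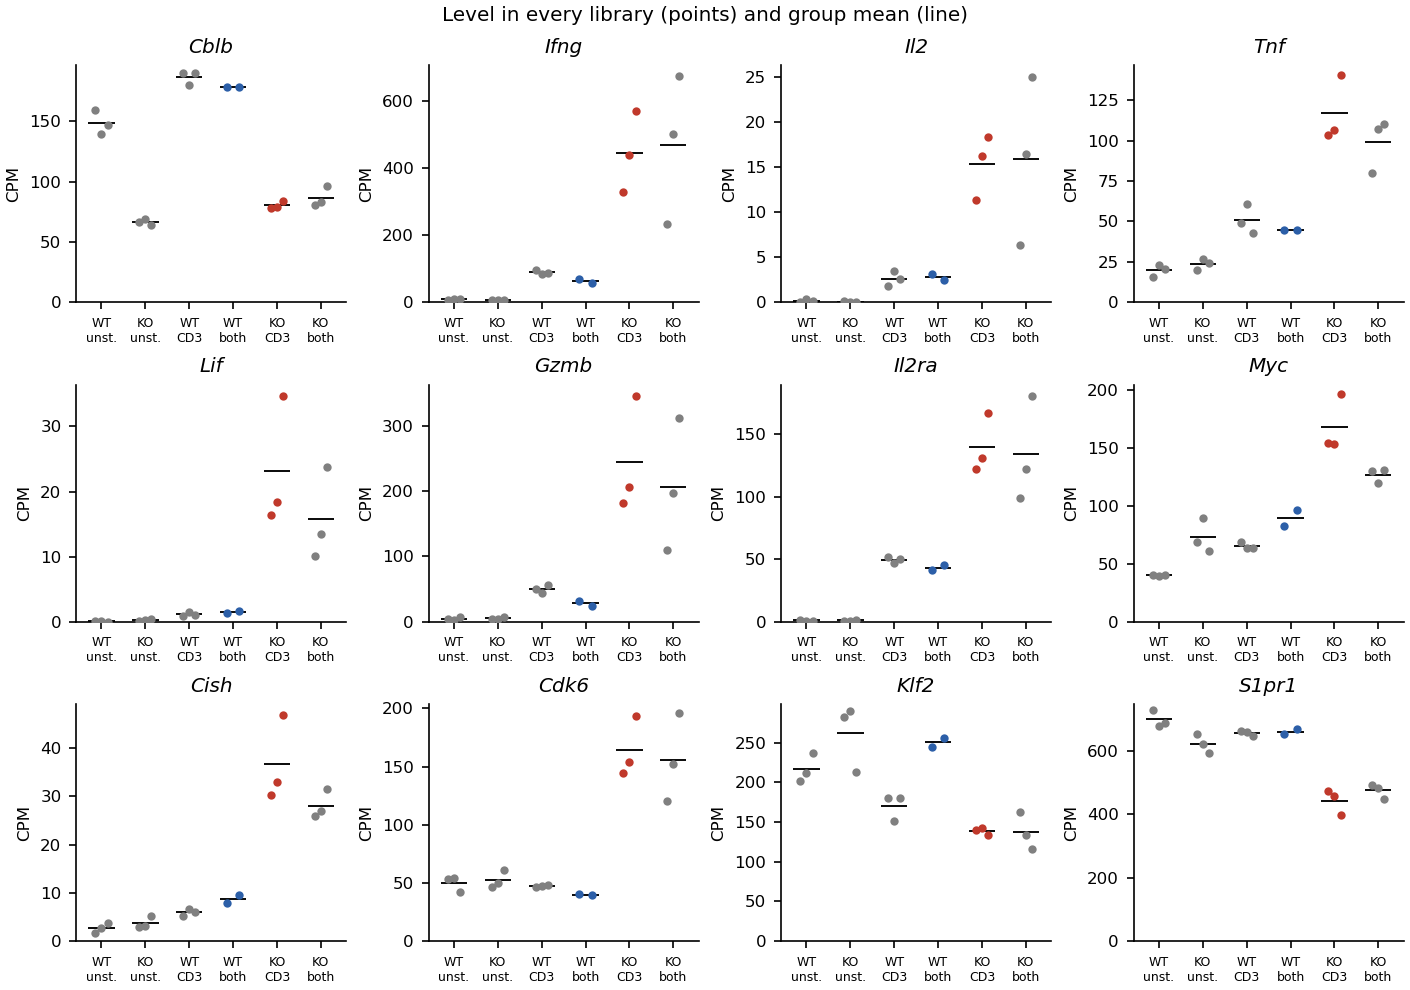
CPM of 12 genes in all 17 libraries (1 panel per gene, y axis from 0; points are libraries and lines are group means; unst., unstimulated; both, anti-CD3 and anti-CD28), with KO anti-CD3 in red and WT both antibodies in blue. For Ifng, Il2, Lif, Gzmb, Il2ra and Cdk6 the 3 red points stand above the blue points and the WT anti-CD3 points, and for Klf2 and S1pr1 below the blue points.

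Cytokine receptor genes were called in both directions. Il2ra, the alpha chain that gives the IL-2 receptor its high affinity, was at 122, 131 and 166 CPM in KO and 41.3 and 45.2 CPM in WT libraries. Every KO library exceeded both WT libraries (1.69 ± 0.23, adjusted p = 0.000541). Both chains of the IL-12 receptor rose, Il12rb2 by 0.94 ± 0.20 and Il12rb1 by 0.87 ± 0.21 (adjusted p = 0.00709 and 0.0138), as did Il15ra by 0.66 ± 0.18 (adjusted p = 0.0235) and Il18rap, named after its value was seen, by 0.49 ± 0.15 (adjusted p = 0.0466). The IL-6 receptor genes Il6ra and Il6st fell by 0.49 ± 0.12 and 0.30 ± 0.09 (adjusted p = 0.0137 and 0.0326). Il7r, the receptor of the survival cytokine IL-7, was at 709, 752 and 610 CPM in KO and 918 and 854 CPM in WT libraries (-0.36 ± 0.11, adjusted p = 0.0493), a call lost in 6 of 15 alternatives. In all, 5 of 22 cytokine receptor genes were higher and 3 lower (median 0.09). These counts were 2 and 0 without KO replicate 3 and 1 and 0 without either WT library, where only Il2ra kept its call.

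Cd28, the costimulatory receptor gene itself, was not called. Its transcript was at 198, 179 and 195 CPM in KO and 197 and 207 CPM in WT libraries, overlapping, with an interval of -0.36 to 0.19 around -0.08 ± 0.13 (adjusted p = 0.733). After GC correction Cd28 was called lower (-0.23, adjusted p = 0.046, range over the alternatives 0.0298 to 0.93). Of 15 costimulatory receptor genes tested 2 were higher: Tnfrsf9, which encodes 4-1BB, at 222, 212 and 266 CPM in KO and 127 and 120 CPM in WT libraries (0.92 ± 0.13, adjusted p = 0.000506), and Crtam (1.00 ± 0.14, adjusted p = 0.000575). In both genes the groups were apart. Icos stood at 0.26 ± 0.14 and Tnfrsf4, which encodes OX40, at 0.48 ± 0.24, and neither was called (adjusted p = 0.262 and 0.215). For 13 of the 15 genes the interval lay within 2-fold, and 4 costimulatory receptor genes were called lower, and 3 higher, after GC correction.

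Among inhibitory receptors and exhaustion genes 4 of 18 were higher and 1 lower (median 0.11, and -0.04 after GC correction). Cd200 was at 21.2, 20.3 and 26.1 CPM in KO and 3.84 and 6.17 CPM in WT libraries, without overlap (2.17 ± 0.30, adjusted p = 0.000506). Entpd1, which encodes the ectonucleotidase CD39, Btla and Cd160 rose by 1.39 ± 0.29, 0.72 ± 0.17 and 0.71 ± 0.15 (adjusted p = 0.00581, 0.0119 and 0.00555). Entpd1 was at a low level, with means of 2.31 CPM in KO and 0.875 CPM in WT libraries. Cd96, an inhibitory receptor of T and NK cells, was at 59.0, 61.7 and 54.5 CPM in KO and 122 and 100 CPM in WT libraries. The groups were apart in the other direction (-0.93 ± 0.13, adjusted p = 0.000451). Pdcd1, which encodes PD-1, stood at 0.48 ± 0.16 (adjusted p = 0.0692, called higher in 6 of 15 alternatives), Lag3 at 0.29 ± 0.25 (adjusted p = 0.496) and Ctla4 at 0.08 ± 0.18 (adjusted p = 0.839), and Ctla4 changed sign, without a call, under GC correction (-0.07). Without KO replicate 3 there were 3 higher and 1 lower, and 1 and 1 without WT replicate 2, and 2 and 1 without WT replicate 3.

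Of 25 genes of the T cell receptor complex and its proximal signalling, 24 had an interval within 2-fold, 0 were higher and 1 was lower (median -0.14). That gene was Plcg1, the phospholipase that starts the calcium signal, at 201, 208 and 183 CPM in KO and 272 and 267 CPM in WT libraries (-0.45 ± 0.14, adjusted p = 0.0381), not called when any 1 of the 5 libraries was left out. After GC correction 8 of these genes were called lower. Of 27 genes of the CD28 pathway and of partners of Cbl-b, 26 had an interval within 2-fold, 1 was higher and 2 lower (median 0.00, and -0.04 after GC correction with 2 higher and 5 lower). These were Vav2, an exchange factor of the Vav family (0.70 ± 0.22, adjusted p = 0.0472), Plcg1 again, and Pik3r1, the regulatory subunit of PI3 kinase (-0.30 ± 0.08, adjusted p = 0.0251). None of the 3 was called without KO replicate 3 or without either WT library.

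Negative regulators of antigen receptor signalling were higher in 5 of 30 cases and lower in 2 (median 0.10). Cish, a feedback inhibitor that cytokine signals through STAT5 induce, was at 30.3, 33.0 and 46.8 CPM in KO and 7.89 and 9.64 CPM in WT libraries. The lowest KO library was more than 3 times the higher WT library, and the fitted difference was 2.07 ± 0.27 (adjusted p = 0.00039). Rgs1, Dusp5 and Spry1, which restrain G protein and MAP kinase signalling, rose by 1.31 ± 0.29, 1.00 ± 0.22 and 0.57 ± 0.12 (adjusted p = 0.0131, 0.0076 and 0.00705), and Ubash3b, named after its value was seen, by 0.38 ± 0.10 (adjusted p = 0.0181). Besides Cblb the gene that fell was Dgka, a diacylglycerol kinase linked to anergy (-0.35 ± 0.11, adjusted p = 0.0464). Of 20 genes associated with anergy 2 were higher, among them Egr2 by 0.52 ± 0.12 (adjusted p = 0.0134), and 2 lower, Cblb and Dgka (median 0.03, and -0.06 after GC correction), so that the share higher was near the 8.96% of all genes. Among regulators, 3 higher and 1 lower were called without KO replicate 3 and 1 and 1 without either WT library, and in the anergy list 0 and 1 in each of these fits.

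The 20 textbook targets of CD28 costimulation were set apart as a list, since only the WT cells had received anti-CD28. Like the other lists it was chosen with earlier results of these data known. It shares, among others, Il2, Csf2, Tnf, Il2ra and Tnfrsf9 with the lists above. KO cells with anti-CD3 alone were higher for 13 of the 20 and lower for 0 (median 0.90). In unstimulated KO minus WT cells 9 of the 20 were higher and 2 lower. The anti-apoptotic gene Bcl2l1, which encodes Bcl-xL, was at 35.3, 37.4 and 51.4 CPM in KO and 16.5 and 15.6 CPM in WT libraries (1.37 ± 0.15, adjusted p = 0.000158). Ccnd2, which encodes cyclin D2, was at 582, 583 and 653 CPM in KO and 301 and 309 CPM in WT libraries (0.99 ± 0.11, adjusted p = 0.000158). In both genes the groups did not overlap, and KO replicate 3 was the highest library. The hexokinase gene Hk2 and the leucine transporter gene Slc7a5 rose by 1.35 ± 0.17 and 1.10 ± 0.14 (adjusted p = 0.000244 and 0.000302). Il2, Csf2, Tnf, Il2ra, Tnfrsf9, Myc and Cd69 were among the others. In 17 of the 20 the KO libraries were all above the WT libraries and in 2 all below, against 29.2% and 27.3% of all genes. The 13 calls became 10, 9 and 8 without KO replicate 3, WT replicate 2 and WT replicate 3, and GC correction gave 13 higher and 1 lower.

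The effect of adding anti-CD28 to WT cells is given beside this, although it shares the 2 WT libraries. In WT both antibodies minus WT anti-CD3 edgeR called 0 of 16246 genes, and 3506 had an unadjusted p under 0.05, while DESeq2 called 398 higher and 90 lower and limma voom 3213 and 2845. The interval lay within 2-fold for 66.3% of the genes. For Il2 that difference was 0.05 ± 0.52, for Bcl2l1 0.34 ± 0.16 and for Myc 0.46 ± 0.14 (adjusted p = 0.967, 0.218 and 0.147), while KO minus WT with anti-CD3 was 2.51 ± 0.43, 1.71 ± 0.14 and 1.37 ± 0.12. WT anti-CD3 libraries were at 1.76, 3.51 and 2.59 CPM for Il2, so the WT libraries with both antibodies lay within their range. In KO cells anti-CD28 gave 0 calls by edgeR (1460 with an unadjusted p under 0.05) and by DESeq2, and 2250 higher and 3300 lower by limma voom. The effect of anti-CD28 differed between the genotypes for 1 gene by edgeR (0.00616%). The GC tilt was -0.11, -0.41 and -0.41 in WT anti-CD3 libraries, against 0.57 and 0.52 in WT libraries with both antibodies. KO libraries with both antibodies were at 0.36, -0.34 and -1.15, against 0.21, 0.10 and 0.24 with anti-CD3 alone. The contrasts of anti-CD28 were not fitted with a GC correction, so the part of this tilt in their calls was not tested.

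Of 26 genes that the T cell receptor induces early, 10 were higher and 1 lower (median 0.41). Myc, the driver of growth after activation, was at 154, 153 and 197 CPM in KO and 82.9 and 96.2 CPM in WT libraries (0.91 ± 0.14, adjusted p = 0.000748). The transcription factor genes Irf8, Nr4a3, Nr4a2 and Irf4 rose by 1.54 ± 0.17, 1.18 ± 0.16, 0.79 ± 0.13 and 0.85 ± 0.15 (adjusted p = 0.000158 to 0.00195). Cd69, an early activation antigen, was at 308, 345 and 415 CPM in KO and 196 and 220 CPM in WT libraries (0.78 ± 0.22, adjusted p = 0.038), and its call was lost in 5 of 15 alternatives. For all of these genes the KO libraries were above the WT libraries. Zfp36, whose product destabilises cytokine transcripts, fell by 0.52 ± 0.15 (adjusted p = 0.035). The 10 calls became 5, 4 and 5 without KO replicate 3, WT replicate 2 and WT replicate 3, and Zfp36 was not called when any 1 of the 5 libraries was left out.

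Among 22 effector and memory transcription factors 5 were higher and 2 lower, around a median of -0.20. Eomes, an effector and memory factor, was at 98.0, 110 and 146 CPM in KO and 40.5 and 38.3 CPM in WT libraries (1.58 ± 0.18, adjusted p = 0.000158). Tbx21, which encodes the effector factor T-bet, was at 36.6, 40.1 and 52.4 CPM in KO and 18.9 and 15.9 CPM in WT libraries (1.31 ± 0.17, adjusted p = 0.00039). KO replicate 3 was the highest in both, and the groups did not overlap. Ahr, Zeb2 and, named after its value was seen, Bhlhe40 stood at 1.27 ± 0.26, 1.16 ± 0.30 and 1.10 ± 0.29 (adjusted p = 0.00574, 0.0226 and 0.025). Bcl6, which encodes a repressor of effector differentiation, was at 22.0, 19.7 and 16 CPM in KO and 33.3 and 35.2 CPM in WT libraries (-0.84 ± 0.17, adjusted p = 0.00384), and Rora fell by 0.45 ± 0.14 (adjusted p = 0.0461). GC correction left 5 higher and gave 7 lower, and without KO replicate 3, WT replicate 2 and WT replicate 3 the counts were 3 and 1, 2 and 1, and 2 and 0.

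Genes of naive and quiescent T cells were lower. Of 25 tested 0 were higher and 11 lower (median -0.35), and in 23 all KO libraries were below the WT libraries, against 2.55% lower and 27.3% below over all genes. In unstimulated KO minus WT cells 0 were higher and 5 lower. Klf2, a factor that keeps T cells quiescent and directs their recirculation, was at 140, 143 and 134 CPM in KO and 245 and 256 CPM in WT libraries (-0.85 ± 0.14, adjusted p = 0.00111). After GC correction Klf2 was not called (adjusted p = 0.0776, range over the alternatives 3.38e-08 to 0.0776). S1pr1, the receptor for exit from lymph nodes, was at 472, 458 and 398 CPM in KO and 654 and 668 CPM in WT libraries (-0.58 ± 0.09, adjusted p = 0.0007). Txnip and Rapgef4 fell by 0.61 ± 0.10 and 0.60 ± 0.10 (adjusted p = 0.000953 and 0.00111). Tcf7, which marks naive and memory cells, stood at -0.35 ± 0.12 without a call (adjusted p = 0.0598), but was called lower in 9 of 15 alternatives (range 0.000186 to 0.262). GC correction gave 20 lower, and 5, 4 and 4 were lower without KO replicate 3, WT replicate 2 and WT replicate 3.

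Targets of IL-2 and STAT5 were mostly higher, with 14 of 22 higher and 2 lower (median 0.91). In unstimulated KO minus WT cells 9 of the 22 were higher and 0 lower. Cdk6, a cyclin-dependent kinase of the G1 phase, had the smallest adjusted p of the named genes after Cblb, at 144, 154 and 194 CPM in KO and 40.3 and 39.7 CPM in WT libraries (2.04 ± 0.18, adjusted p = 3.56e-05). Bcl2, the anti-apoptotic gene, was at 249, 254 and 305 CPM in KO and 143 and 121 CPM in WT libraries (1.03 ± 0.14, adjusted p = 0.00046). In both the groups were apart. The 2 that fell were Bcl6 (above), which IL-2 signalling is known to repress, and the growth factor receptor gene Igf1r (-0.67 ± 0.16, adjusted p = 0.0116). This list shares, among others, Lif, Lta, Il2ra, Gzmb, Prf1, Myc, Ccnd2 and Bcl2l1 with the lists above. Its counts were 13 and 1, 11 and 1, and 12 and 0 without KO replicate 3, WT replicate 2 and WT replicate 3.

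Of 23 NF-kappaB targets and survival genes 7 were higher and 0 lower (median 0.10), among them Nfkbid by 0.72 ± 0.12 and Nfkb1 by 0.55 ± 0.10 (adjusted p = 0.00186 and 0.00331). Without KO replicate 3 this list had 4 higher and 0 lower, and in unstimulated KO minus WT cells 11 higher and 2 lower. Of 33 genes of the interferon-gamma response 1 was higher, Irf8, and 2 were lower, Gbp8 by -0.49 ± 0.13 and Irf9 by -0.47 ± 0.13 (adjusted p = 0.0199 and 0.0221; median -0.21), and the interval lay within 2-fold for 28. After GC correction 11 of them were lower and 2 higher, and without KO replicate 3 0 were lower and 1 higher. In unstimulated KO minus WT cells 18 of the 33 were higher and 0 lower. Of 26 type I interferon response genes 0 were higher and 1 lower, the RNA sensor gene Ddx58 (-0.36 ± 0.09, adjusted p = 0.0158; median -0.07). In this list 6 were lower after GC correction, and 0 without KO replicate 3. Of 19 genes of the TGF-beta pathway 1 was higher and 5 lower (median -0.14): the receptor gene Tgfbr2, at 257, 236 and 214 CPM in KO and 313 and 330 CPM in WT libraries (-0.45 ± 0.11, adjusted p = 0.0131), the inhibitory Smad gene Smad7 (-0.60 ± 0.12, adjusted p = 0.00333), Itgae (-0.65 ± 0.17), Ldlrad4 (-0.57 ± 0.17) and Smurf1 (-0.52 ± 0.17, named after its value was seen), against Itgav (0.64 ± 0.17). Without KO replicate 3 or either WT library 0 were called higher in this list and 1 lower, Smad7.

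Of 20 apoptosis and p53 target genes 5 were higher and 1 lower (median 0.08). The higher ones included Sesn2, the death receptor gene Fas, Bid and, named after its value was seen, Gadd45b, at 0.37 ± 0.11 (Bid) to 0.95 ± 0.23 (Sesn2), and Sesn1 fell by 0.56 ± 0.10 (adjusted p = 0.00204). Without KO replicate 3 none of the 5 was called, nor without either WT library. Of 21 homing and adhesion genes 2 were higher, a share near the 8.96% of all genes, and 4 lower, against 2.55% (median -0.23). Cd44, the hyaluronan receptor that marks activated T cells, was at 79.7, 79.7 and 88.9 CPM in KO and 46.4 and 38.5 CPM in WT libraries (0.97 ± 0.17, adjusted p = 0.00177), and Itgb1 stood at 0.45 ± 0.13. S1pr1, Itgae, the gut homing receptor gene Ccr9 (-0.50 ± 0.13) and the integrin gene Itga4 (-0.42 ± 0.12) were lower. Without KO replicate 3 and WT replicate 2 there was 1 higher and 1 lower, and without WT replicate 3 0 and 1.

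**Figure D3:**
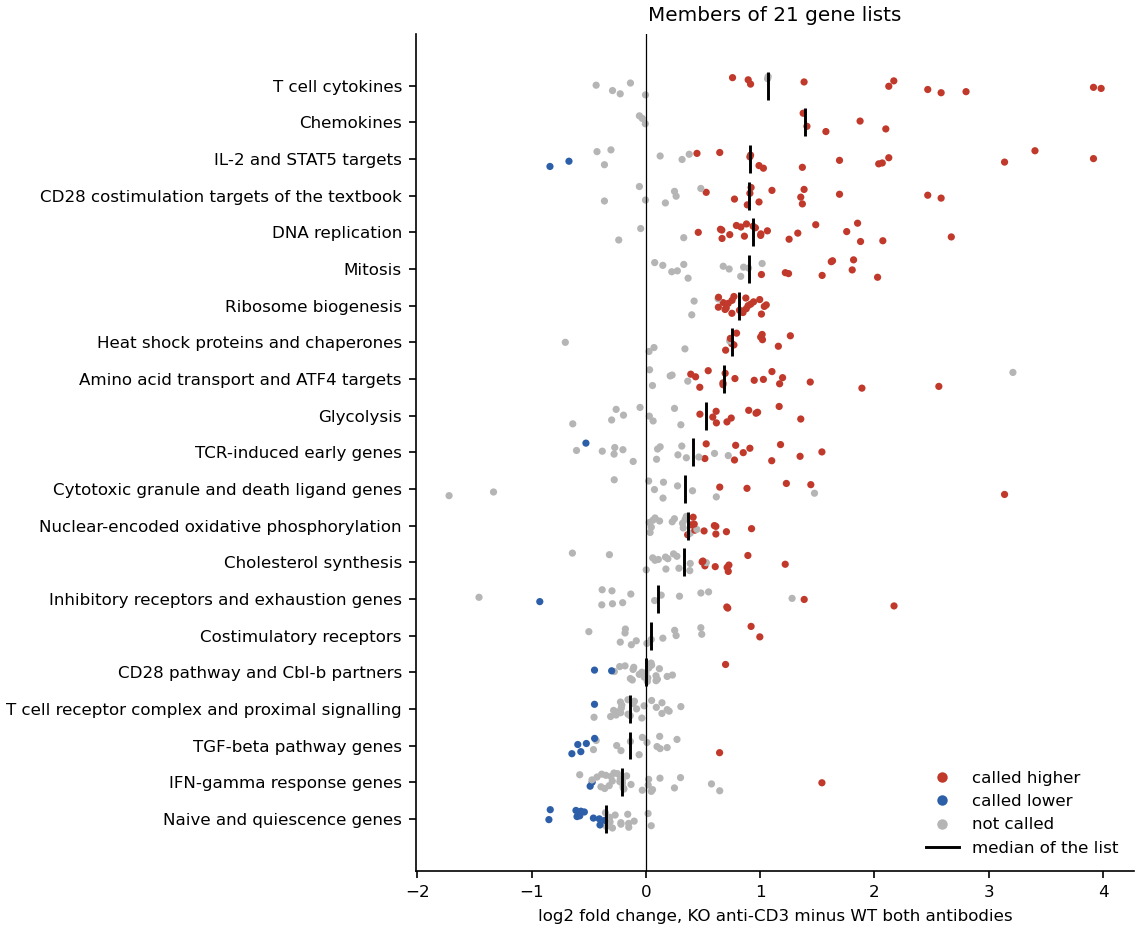
Log2 fold change of KO anti-CD3 minus WT both antibodies (x axis) for the tested members of 21 gene lists (rows), 1 point per gene, red where called higher, blue where called lower and grey where not called, with the median of the list as a black bar. The medians of the chemokine and cytokine lists stand farthest right, at 1.39 and 1.07, and that of the naive and quiescence list farthest left, at -0.35.

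Transcripts of growth and metabolism genes were higher in KO cells with anti-CD3 alone than in WT cells with both antibodies, and many were also higher in unstimulated KO cells. Of 25 ribosome biogenesis genes 22 were higher and 0 lower (median 0.82), and in all 25 the KO libraries were above the WT libraries, against 8.96% higher and 29.2% above over all genes. Nolc1, a nucleolar chaperone gene, was at 187, 177 and 230 CPM in KO and 106 and 109 CPM in WT libraries (0.88 ± 0.11, adjusted p = 0.000329), and Rrp1b, Polr1b and Mybbp1a rose by 1.00 ± 0.12, 0.94 ± 0.13 and 0.85 ± 0.11. Of 22 genes of amino acid transport and the ATF4 response 16 were higher and 0 lower (median 0.68). Asns, asparagine synthetase, was at 16.6, 14.6 and 22.4 CPM in KO and 5.45 and 4.21 CPM in WT libraries (1.89 ± 0.26, adjusted p = 0.00053), and Psat1 of serine synthesis and Mthfd2 of mitochondrial folate metabolism rose by 1.44 ± 0.16 and 1.17 ± 0.15. Of 20 glycolysis genes 11 were higher and 0 lower (median 0.53), with Tpi1 at 1.17 ± 0.15, Pgk1 at 0.98 ± 0.15 and Pgam1 at 0.96 ± 0.14. In unstimulated KO minus WT cells 9 ribosome biogenesis, 9 amino acid and 12 glycolysis genes were higher, and 1, 1 and 0 lower. These 3 lists had 11, 6 and 5 genes called without WT replicate 2, 12, 7 and 6 without WT replicate 3, and 19, 8 and 8 without KO replicate 3.

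Cholesterol synthesis had 9 of 24 genes higher and 0 lower (median 0.34), including Sqle, Fdps and Idi1 (0.89 ± 0.17, 0.71 ± 0.12 and 1.22 ± 0.25). In nuclear-encoded oxidative phosphorylation 11 of 25 genes were higher and 0 lower (median 0.37), including Cycs, which encodes cytochrome c (0.92 ± 0.18), Atp5b (0.61 ± 0.10), Ndufa4 (0.61 ± 0.12) and Cox6c (0.51 ± 0.11). Both lists rested on single libraries, with 5 and 3 called without KO replicate 3, 1 and 1 without WT replicate 2, and 0 and 2 without WT replicate 3. Mitochondrially encoded genes had 0 of 13 called, between -0.46 ± 0.29 for mt-Co3 and 1.11 ± 1.03 for mt-Co2, and took 2.409% to 2.885% of the counts in KO and 2.852% to 3.057% in WT libraries. Heat shock proteins and chaperones had 10 of 15 higher and 0 lower (median 0.75), including Hsp90ab1, Hspe1, Hspa9 and Hsph1 (0.77 ± 0.10, 1.02 ± 0.17, 1.00 ± 0.17 and 0.79 ± 0.14), with 9, 6 and 7 called without KO replicate 3, WT replicate 2 and WT replicate 3. The immediate early genes that cell handling can induce summed to 305 to 370 CPM in KO and 380 to 381 CPM in WT libraries, with Fosb (1.35 ± 0.31) and Atf3 (1.92 ± 0.44) higher and Zfp36 lower of 12 (median -0.10, and 0.02 after GC correction), and 0 were called without KO replicate 3 or either WT library. Their part in the chaperone result was not tested.

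Cell cycle genes were higher as well. Of 25 DNA replication genes 22 were higher and 0 lower (median 0.94), and in unstimulated KO minus WT cells 8 were higher and 0 lower. The licensing factor gene Cdc6 was at 6.73, 6.13 and 9.62 CPM in KO and 1.87 and 1.71 CPM in WT libraries (2.07 ± 0.28, adjusted p = 0.000411), and Uhrf1, a factor of maintenance DNA methylation, was at 31.2, 28.8 and 46.1 CPM in KO and 10.1 and 9.60 CPM in WT libraries (1.85 ± 0.21, adjusted p = 0.000218). KO replicate 3 was again the highest library and the groups were apart. The helicase subunit genes Mcm3 and Mcm5 rose by 1.00 ± 0.12 and 1.01 ± 0.12. Without KO replicate 3, WT replicate 2 and WT replicate 3, 13, 11 and 10 replication genes were called. Of 21 mitosis genes 9 were higher and 0 lower (median 0.90), with Aurkb, Cdk1, Tpx2 and Top2a at 2.03 ± 0.50, 1.80 ± 0.39, 1.63 ± 0.39 and 1.62 ± 0.29, but 2 were called without KO replicate 3, 2 without WT replicate 2 and 0 without WT replicate 3. Aurkb, Cdk1 and Tpx2 were at low levels, with means of 2.96, 4.90 and 4.23 CPM in KO and 0.734, 1.41 and 1.36 CPM in WT libraries. Of 19 G1 genes 6 were higher and 2 lower (median 0.24). Besides Cdk6 and Ccnd2, Cdk4 and E2f3 rose by 0.72 ± 0.12 and 1.00 ± 0.20, and Cdkn1b, which encodes the CDK inhibitor p27, and the retinoblastoma-family gene Rbl2 fell by 0.40 ± 0.11 and 0.34 ± 0.08. The G1 counts were 4 and 0 without KO replicate 3 or WT replicate 2 and 3 and 0 without WT replicate 3.

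The genes that WT cells regulate with anti-CD3 were then taken as a class, from WT anti-CD3 and WT unstimulated libraries, which are outside the comparison. In that contrast 11.3% of genes were called higher and 13.1% lower, and 671 were higher and 650 lower by at least 2-fold. Of the 671 induced genes 144 (21.46%) were higher in KO cells with anti-CD3 than in WT cells with both antibodies, 20 (2.981%) were lower, and 220 had an interval within 2-fold. The corresponding shares over all genes were 8.96% and 2.55%. The median of the induced genes was 0.06, with quartiles at -0.36 and 0.87, so the higher levels were in a portion of the class and not in all of it. Of the 234 genes induced at least 4-fold, 79 (33.76%) were higher and 4 lower (median 0.72). Of the 650 repressed genes 24 were higher and 19 lower (median -0.09). Without KO replicate 3, WT replicate 2 and WT replicate 3 the induced genes called were 88 higher and 6 lower, 50 and 6, and 46 and 3. After GC correction 167 induced genes were higher and 57 lower, and 34 repressed genes were higher and 58 lower, against 1895 and 1623 of all 16246 genes.

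**Figure D4:**
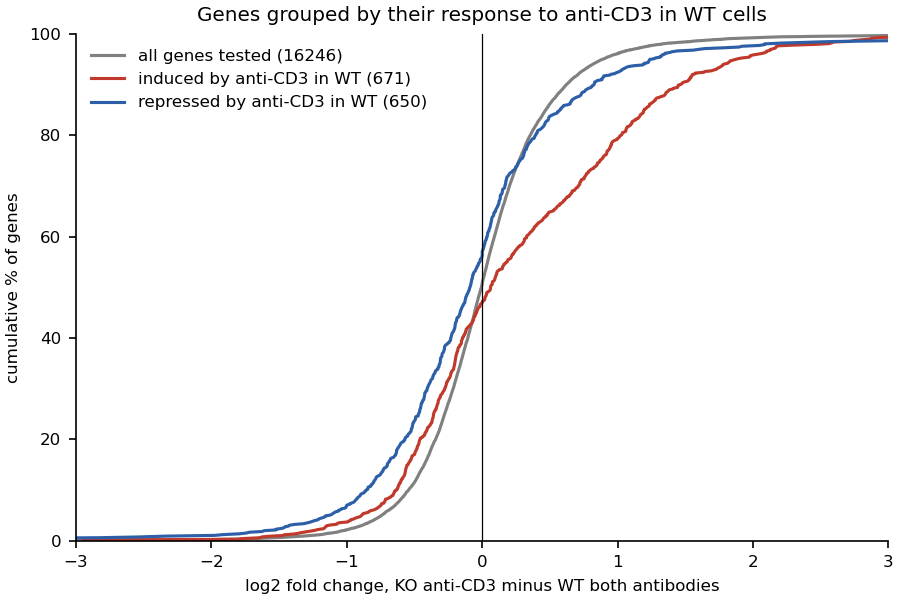
Cumulative share of genes (y axis, %) by log2 fold change of KO anti-CD3 minus WT both antibodies (x axis) for all 16246 genes tested (grey), the 671 induced (red) and the 650 repressed (blue) by anti-CD3 in WT cells. The red curve runs to the right of the grey one above 0, where the upper quartile of the induced genes stands at 0.87 against 0.27 for all genes, while the medians lie near 0.

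By the naming rule (called protein-coding genes of mean log2 CPM 2 or more, groups apart) the highest of the induced genes were Lif, Gzmb, Ifng, Lad1, Il2 and Cd200. Lad1, which encodes an anchoring filament protein of epithelia, was at 8.96, 16.1 and 25.7 CPM in KO and 2.44 and 2.64 CPM in WT libraries (2.74 ± 0.49, adjusted p = 0.00382). As a ratio of CPM, KO replicates 1 and 3 differed by more for Lad1 than for the other 5 genes, and the Lad1 call was lost without either WT library. The lowest induced genes by this rule were Bcl6, Wfikkn2, Igf1r, Slc25a27, Tmem140 and Tbc1d30, between -0.84 ± 0.17 and -0.62 ± 0.15, and 4 of the 20 lower induced genes, none of which met the naming rule, were lower by at least 2-fold. The 12 highest genes of the comparison by this rule also held Tnfsf11, Lta, Ccl3, Cdc6, the serpin gene Serpina3f (2.10 ± 0.26) and Fignl1 (2.08 ± 0.30).

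The lowest genes in KO cells by the naming rule were of smaller change than the highest, and of mixed kind. Over all genes tested 52 were lower by at least 2-fold and 7 by at least 4-fold. Gria3, an AMPA-type glutamate receptor subunit gene, was at 3.15, 4.50 and 2.19 CPM in KO and 8.52 and 9.01 CPM in WT libraries, the lowest fold change by the naming rule (-1.45 ± 0.33, adjusted p = 0.00869). App, which encodes the amyloid precursor protein, was at 12.2, 12.3 and 10.6 CPM in KO and 24.7 and 22.2 CPM in WT libraries (-1.01 ± 0.17, adjusted p = 0.00142). The groups were apart in both. Besides Cblb, the 12 lowest by this rule also held the sialyltransferase gene St8sia6 (-1.18 ± 0.27), the prohormone convertase gene Pcsk1 (-1.16 ± 0.29), Ramp1 (-1.12 ± 0.28), Hist2h4 (-1.08 ± 0.28), Cyp2s1 (-1.07 ± 0.32), Abhd15 (-1.04 ± 0.26), Ksr2 (-1.02 ± 0.23), Cyp2d22 (-1.002 ± 0.19) and Gprc5b (-0.95 ± 0.19). Of these 12, only Cblb and App were called under all 15 alternatives. Hist2h4, Cyp2d22, Serpina3f, Gbp8 and Klra8 belong to families of related genes. How reads that fit several members were counted was not examined, so the counts of these genes are uncertain. By gene type, 1371 of 11908 protein-coding genes were higher and 363 lower, while 11 of 558 lincRNA genes were higher and 19 lower, and 5 of 698 antisense genes higher and 11 lower; how strand entered the counting is not stated for these files, so antisense genes and their partners cannot be told apart with certainty.

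The same crossing of genotype and costimulation exists the other way round, in libraries that are none of the 5. KO cells with both antibodies against WT cells with anti-CD3 gave 399 genes higher (2.46%) and 144 lower (0.886%). Of the 1455 genes higher above, 356 were also called higher there (24.47% of the 1455 and 89.22% of the 399). Of the 415 lower genes 106 were also called lower (25.54% of the 415 and 73.61% of the 144). No gene was called in opposite directions. Both contrasts set KO against WT cells, so any difference of genotype enters both, and its part in the shared calls was not tested. The labels do not say whether these libraries came from the same animals as the 5 compared, and both contrasts share the estimate of the spread.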

How the data were processed

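Total RNA of mouse CD8+ T cells was depleted of ribosomal RNA, made into stranded libraries and sequenced as paired ends. The authors deposited 1 file of whole-number read counts per gene and library (53679 genes, 24955 at 0 in every library). STAR 2.5.2, RSEM 1.3.0 and the build GRCm38 (mm10) are named in the submitters' processing notes, and not given in the sources used here: their roles, the annotation release, any rounding and the strand setting. Symbols and GC content came from GENCODE on GRCm38 (53650 identifiers matched).

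The 5 libraries were compared with edgeR 4.0.16 in R 4.3.3 (filterByExpr by group, TMM scaling, robust quasi-likelihood fit of all 17 libraries in 6 groups, Benjamini-Hochberg, threshold 0.05). Fitting all groups lends the WT group of 2 libraries the spread of the others. Intervals are 95% from the fitted SE. The labels name no animal for any replicate, so the p-values speak only of the spread between these samples, which could be technical; replicates of the 2 groups differed beyond counting noise (chi-square per gene 4.03 to 30.8), and none was treated as a duplicate. The members and the 38 gene lists (651 genes) were chosen with earlier results of these data known, and 3 further contrasts (KO minus WT unstimulated, KO both antibodies minus WT anti-CD3, and the genotype difference in the anti-CD28 effect) were added later. Named genes are 31 fixed genes, the 12 highest and 12 lowest called protein-coding genes (mean log2 CPM 2 or more) without overlap of the groups or predicted names, up to 4 called members per list and direction (for lists without a call the lowest and highest), and the 6 highest and lowest induced genes. Others are marked as named after their values were seen, and some genes that meet the rule are not reported here.

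Alternatives were RLE scaling, DESeq2 1.42.0, limma 3.58.1 voom with quality weights, other filters, the 5 libraries alone, the replicate number as a block, a loess correction for GC (span 0.3), both together, and leaving out libraries. On counts simulated for this comparison (15828 genes fitted), edgeR called 67% of 100 genes changed 2-fold, 96% of 100 changed 4-fold and 4 unchanged genes, and 95.2% of the intervals of unchanged genes held 0. Figures used matplotlib 3.10.9.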

Additional observations from a re-analysis of the deposited data

Results flagged for a closer look

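The effect of anti-CD28 differed between KO and WT cells for 1 gene, Nob1, which encodes a factor of ribosomal RNA processing and was named after its value was seen. The difference of effects, KO minus WT, was -1.22 ± 0.18 on the log2 scale (edgeR interaction term, adjusted p = 0.0482). Nob1 was at 17.2, 14.1 and 18.0 CPM in WT anti-CD3 libraries and 26.2 and 28.2 CPM in WT libraries with both antibodies, and at 33.6, 30.8 and 38.2 CPM in KO anti-CD3 libraries and 26.9, 23.3 and 22.9 CPM in KO libraries with both antibodies. In KO anti-CD3 minus WT both antibodies it stood at 0.33 and was not called (adjusted p = 0.124). For the same interaction DESeq2 called 1012 genes higher and 1368 lower and limma voom 3579 and 4102, and 4641 genes had an unadjusted p under 0.05 in edgeR. The GC tilt was unequal between these groups, as given above. The interaction was not fitted with a GC correction, so the part of the tilt in Nob1 and in these counts was not tested.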

How the results depend on the processing

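The direction of the 142 called genes named above held under 15 alternatives (14 for Klra8, which has no adjusted p in DESeq2), and 56 were called under every one. Of the rest 69 lost the call only when a library was left out. Of the genes named without a call, Tcf7, Pdcd1, Icos, Cd28 and mt-Co2 were called under 9, 6, 2, 2 and 1 alternatives. The uncalled Ctla4 reversed to -0.068 (GC correction), -0.026 (GC correction with replicate block) and -0.074 (without WT replicate 2; up to 0.213 with other libraries left out). Counts that moved by over 1.5 times follow, and the cause was not tested except that leaving out libraries gives fewer samples. DESeq2 gave 793 lower genes, 39 lower induced and 33 lower repressed. Voom gave 5924 called (3317 higher, 2607 lower), induced 219 and 117, repressed 61 and 98. The 5 libraries alone gave 4725 (2778 and 1947). GC correction gave 3518, with 1623 lower, and 57 induced and 58 repressed lower. GC correction with the replicate block gave 3907, with 1865 lower, 69 induced lower, and 37 repressed higher and 64 lower. Leaving out 2 libraries of extreme GC tilt (KO both-antibody 3, KO unstimulated 2), 3388 were called, 1284 lower, with 55 induced and 47 repressed lower. Testing against a fold of 1.5 gave 74 (72 and 2), and 5524 intervals lay within 1.5-fold. The 4-fold classes gave induced 79 and 4, repressed 6 and 5. Leaving out each library in turn gave 323 to 1552 called, 278 to 1281 higher and 37 to 304 lower, induced 46 to 130 higher and 3 to 18 lower, and repressed 8 to 23 higher and 0 to 14 lower, with the lowest counts without a WT library, where the lone WT library is assumed to vary like the other groups. The replicate block gave 2118 called (1613 and 505) and -1.15 for Cblb. Same-numbered libraries did not deviate together (r from -0.49 to 0.63 over 40 pairs, 11 of them over 0.1, and 0.05 and 0.07 for the 2 pairs of the groups compared; 6 of 17 libraries correlated best with their own number), so the numbers were not taken as pairs. In the simulated counts 67% of the genes changed 2-fold were recovered, so with 2 WT libraries differences of that size can be missed. Changes below 2-fold were not simulated, and neither was the unequal GC tilt of the groups.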

Other observations

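Genes near Cblb on chromosome 16 were called more often than genes elsewhere, a pattern looked at after the values were seen and not tested. Within 10 Mb of the start of Cblb 77 other genes were tested, of which 12 were higher and 7 lower in KO anti-CD3 minus WT both antibodies (24.7% called). On the other chromosomes the share was 11.4% of 15774 genes, and on the rest of chromosome 16, beyond 20 Mb, 14.9% of 316. Cd96, the inhibitory receptor gene described above, starts 6.00 Mb from Cblb and was also lower in unstimulated KO than in unstimulated WT cells (-0.96, adjusted p = 0.00114). Plcxd2, Gm15638 and Slc35a5, at 6.07, 6.09 and 6.89 Mb and named after their values were seen, were likewise lower in the comparison (-0.47, -1.53 and -0.55, adjusted p = 0.0262, 0.00111 and 0.0089) and in unstimulated cells (-1.01, -1.51 and -0.91). Cd200 and Btla, at 6.65 and 6.81 Mb, were higher in the comparison (2.17 and 0.72) but stood at -0.67 and -0.60 in unstimulated KO minus WT cells (adjusted p = 0.101 and 0.0119). In unstimulated cells 25.4% of all genes were called between the genotypes.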
